A study of Mus musculus with 4 samples.

Results

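Genes of the cells that build brain blood vessels were examined in the hypothalamus of tumour-bearing mice. They were 34 named genes of endothelial cells, which line the vessels, and of mural cells, the pericytes and smooth muscle cells wrapped around them. A gene counted as measured when it had a probe set, a group of array probes summarised together, that was annotated with that gene alone. On that rule 32 of the 34 genes were measured, out of 19938 genes on the array. Ly6c1 is listed only on 2 probe sets that it shares with Ly6c2, and Ly6a was not matched to a probe set here, so neither has a value. Each of the 32 measured genes had a single probe set.

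The samples were hypothalami of male CDF1 mice, the cross of BALB/c and DBA/2, aged 10 to 11 weeks and killed on day 20. Tumour-bearing mice had been injected under the skin of the flank with C26 cells, a mouse colon adenocarcinoma line whose tumours cause wasting, and control mice with 0.2 ml of buffered saline alone. There were 4 arrays, each of total RNA. The control array held RNA pooled from 4 mice, the array of 500000 cells (0.5M) RNA from 4, the array of 1000000 cells (1M) RNA from 3, and the array of 2000000 cells (2M) RNA from 1 mouse, although its title calls it pooled. Fewer mice were pooled where more cells were injected, so the number of cells and the number of mice cannot be told apart along the series. No group had a second array.

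Brain endothelial cells form the blood-brain barrier: tight junctions seal the clefts between them, transport proteins carry nutrients across, and efflux pumps return foreign molecules to the blood. Pericytes sit on the same basement membrane and help to keep the barrier in place. The hypothalamus also holds a vascular region of another kind, the median eminence, whose capillaries are fenestrated and let hormones pass. In whole tissue, fewer cells of a type and less RNA per cell cannot be told apart.

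Values are RMA values on a log2 scale, so a difference of 1 is a doubling of signal. Levels of different probe sets were not set against each other. Array medians lay between 6.72 and 6.77 log2 over all probe sets, and pairs of arrays correlated at 0.984 to 0.994. A gene was tested when its mean over the arrays reached 6.59 log2, the 40th percentile. That left 11963 genes, 30 of the 32 measured vascular genes among them. Kdr and Sox17 fell short, and no tested member was below 6.82 log2 on any array, so none passed through its high arrays alone. The barrier and pericyte markers Cldn5, Slc2a1, Pdgfrb, Rgs5 and Vtn all lay above the filter value on every array, as did the pan-endothelial markers Pecam1 and Cdh5.

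The vascular genes did not shift as a block. The median difference from control over the 32 measured genes was 0.03 log2 at 0.5M, 0.07 at 1M and 0.00 at 2M, beside 0.01, 0.04 and 0.01 log2 over all genes past the filter. Of the 30 tested genes 14 were higher than control on all 3 tumour-bearing arrays, with 33.4% of all genes in the same position, and 9 were lower on all 3, beside 27.3% of all genes. These 3 differences share the control array. A small number of genes stood well away from control, some of them level across the tumour-bearing arrays and some graded with the number of injected cells. They lay at least 0.5 log2 from control on any tumour-bearing array, or at least 0.3 log2 on all 3 in the same direction. Vwf, Mfsd2a and Stab2 were the high ones, and Pltp, Itm2a, Anpep and Tek the low ones. Ramp2 and Egfl7 fell short of this limit, with mean differences of 0.30 and 0.28 log2, close in size to that of Tek (-0.32 log2).

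**Figure D1:**
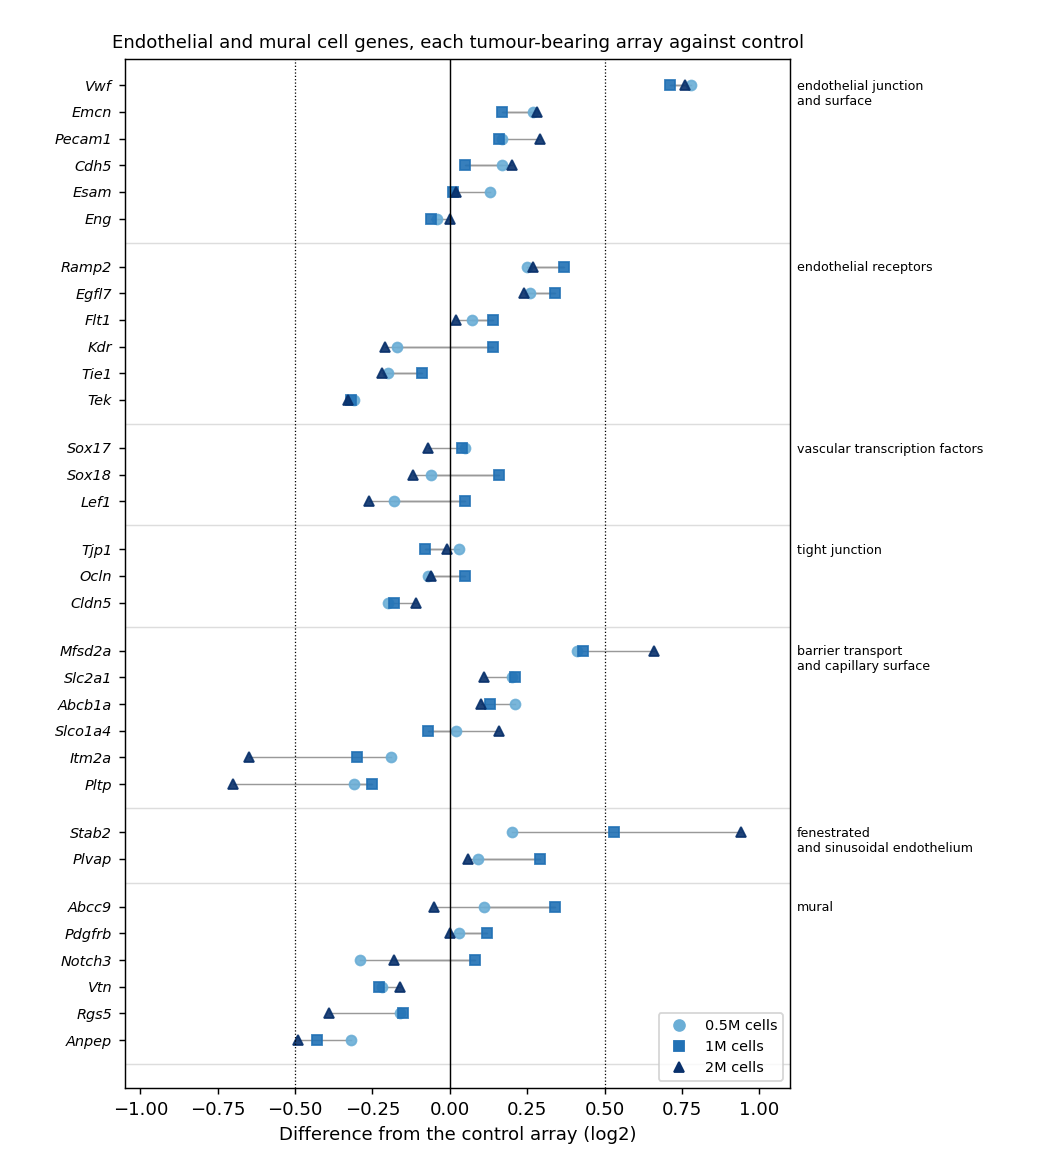
Difference of each tumour-bearing array from the control array (x axis, log2) for the 32 measured vascular genes (y axis, grouped by role), with circles for 500000 cells, squares for 1000000 and triangles for 2000000. Each point is 1 array against 1 array, and dotted lines mark 0.5 log2 either way. Vwf lies beyond 0.5 log2 on all 3 arrays, while Stab2, Itm2a and Pltp spread widely between arrays and most other genes lie close to 0.

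By limma, a linear model that borrows spread across genes, none of the 30 tested genes passed the test of the 3 tumour-bearing arrays against the control after adjustment over all genes. Over the whole array 6 genes (0.0502%) were called higher and 0 lower. At an unadjusted p under 0.05, limma gave 5 vascular genes on the high side (Vwf, Emcn, Ramp2, Egfl7 and Mfsd2a), or 16.7%, beside 6.19% of all genes. On the low side it gave 2 (Tek and Anpep), or 6.67%, beside 4.61%. The spread in this test is that between 3 cell numbers, with 2 residual degrees of freedom, and the lone control array is assumed to vary like the others. SDs given after ± below are over the 3 tumour-bearing arrays (n = 3) and hold no error of the control.

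Seen by cell number, the genes at least 0.5 log2 (1.41-fold) away from control were few. At 0.5M this was Vwf alone on the high side, 1 of 30 beside 0.56% of all genes, and 0 on the low side, beside 0.293%. The 1M array had Vwf and Stab2 above, 2 of 30 beside 1.63%, and 0 below, beside 2.14%. The single mouse of 2M had Vwf, Mfsd2a and Stab2 above, 3 of 30 beside 1.24%, and Pltp and Itm2a below, 2 of 30 beside 1.25%. With 1 array a group these counts carry no test. Without a fold limit, 11 members were highest on the 1M array, as were 37.2% of all genes, and 9 were lowest on the 2M array, beside 21.8%.

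Among the surface and junction proteins shared by endothelial cells of most vessels, Vwf stood apart from the other 5. Vwf encodes von Willebrand factor, a clotting glycoprotein that endothelial cells store and release. Its level was 7.38 log2 on the control array and 8.15, 8.09 and 8.14 log2 on the arrays of 0.5M, 1M and 2M. All tumour-bearing arrays were thus higher, within 0.06 log2 of each other. The mean difference was 0.75 ± 0.03 log2, a 1.68-fold higher signal, with a standard error of 0.09 in limma and an adjusted p of 0.119, which misses the threshold of 0.05. Under the alternative settings its limma adjusted p ranged from 0.0884 to 0.436. By p-value Vwf ranked 11 among the 11963 genes, and it was the only member at least 0.5 log2 above control on all 3 arrays, a position that 0.301% of all genes shared.

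Platelets and their precursors also make von Willebrand factor, and some of their marker genes were also higher than control. Of 11 listed markers 8 were measured and 4 tested, with a median difference of 0.20 log2. Among those measured, 5 were higher than control on all 3 tumour-bearing arrays and 0 lower (33.4% and 27.3% of all genes past the filter). The log2 of their summed signal was 9.42 on the control array and 9.70, 9.96 and 9.92 at 0.5M, 1M and 2M. The marker farthest from control was Ppbp, a platelet chemokine gene, which made up most of the rise in that sum. Ppbp was at 7.01 log2 on the control array and 8.04, 8.34 and 8.39 on the others (limma adjusted p = 0.119). Next came Gp5, Clec1b and Treml1, which differed from control by 0.31 ± 0.17, 0.22 ± 0.15 and 0.20 ± 0.08 log2, the first pair below the filter value and not tested. The platelet-defining genes Pf4 and Itga2b, named after their values were seen, differed by 0.09 ± 0.20 and 0.01 ± 0.12 log2. Of 9 erythroid markers 5 were measured and 1 tested, with a median difference of 0.26 log2. On all 3 arrays 3 were higher and 0 lower, beside 33.4% and 27.3% of all genes. Alas2, the tested one, was at 7.09 log2 in control and 8.03, 7.92 and 7.87 log2 on the tumour-bearing arrays. It differed by 0.85 ± 0.08 log2 (limma adjusted p = 0.119), rank 9 by p-value among all genes tested. The part of blood-borne RNA in the Vwf difference was not tested.

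The other 5 surface and junction genes lay closer to control. Emcn, a sialomucin of capillary and venous endothelium, measured 7.71 log2 on the control array and 7.98, 7.88 and 7.99 log2 on the tumour-bearing arrays (0.24 ± 0.06 log2, limma adjusted p = 0.449). Pecam1, the adhesion molecule CD31, which platelets carry as well, went from 7.26 log2 in control to 7.43, 7.42 and 7.55 log2. For Cdh5, the cadherin of endothelial adherens junctions, the values were 8.05 in control and 8.22, 8.10 and 8.24 log2. These 3 genes lay above control on every tumour-bearing array, by 0.05 to 0.29 log2. Esam, an endothelial cell adhesion molecule, gave 7.48 log2 in control and 7.61, 7.49 and 7.50 log2 in order of cell number. Eng, a co-receptor for TGF-beta ligands, gave 8.17 log2 in control and 8.13, 8.11 and 8.17 log2. Both stayed within 0.13 log2 of control.

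Receptors and signals that steer vessel growth and stability went in both directions. Tek, the receptor for angiopoietins known as Tie2, was lower on all tumour-bearing arrays, at 7.26, 7.25 and 7.24 log2 against 7.57 log2 in control. The 3 values lay within 0.02 log2 of each other, and the difference was -0.32 ± 0.01 log2 (limma adjusted p = 0.375). Its partner receptor Tie1 was at 7.33 log2 in control and 7.13, 7.24 and 7.11 log2 in the tumour-bearing arrays, a difference of -0.17 ± 0.07. Tek and Tie1 were thus both below control on each of the 3 arrays.

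VEGF receptors, which carry the main growth signal of endothelial cells, showed no common direction. Flt1, the decoy-like VEGF receptor 1, measured 8.64 log2 in control and 8.71, 8.78 and 8.66 log2. Kdr, the signalling VEGF receptor 2, lay below the filter value on the mean, at 6.53 log2 in control and 6.36, 6.67 and 6.31 log2, so it was not tested. Its tumour-bearing arrays fell on both sides of control. Ramp2, the co-receptor that makes the receptor for adrenomedullin in endothelium, was 7.95 log2 in control and 8.20, 8.32 and 8.22 log2 in tumour-bearing arrays (0.30 ± 0.06 log2, limma adjusted p = 0.384). Calcrl, which pairs with Ramp2 in that receptor, differed the other way, with 8.00 log2 in control and 7.83, 7.37 and 7.69 log2 after injection of cells. Egfl7, a protein secreted by endothelial cells into the vessel wall, stood at 8.03 log2 in control and 8.29, 8.37 and 8.27 log2 (0.28 ± 0.05 log2, limma adjusted p = 0.397). Ramp2 and Egfl7 had their highest value on the 1M array.

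The vascular transcription factors stayed close to control. Sox18 gave 7.30 log2 in control and 7.25, 7.46 and 7.18 log2, and Lef1, which acts at the end of the Wnt pathway that maintains the barrier, gave 7.57 log2 and then 7.39, 7.62 and 7.31 log2. For both genes the 1M array was above control and the arrays of 0.5M and 2M below it. Sox17, below the filter value, was at 6.31 log2 in control and at 6.35, 6.35 and 6.24 log2.

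Tight junction genes did not lie far from control either. Cldn5, the claudin that seals the brain endothelium, was the 1 gene of this group on the same side of control on all 3 arrays. It measured 8.73 log2 in control and 8.53, 8.55 and 8.62 log2, a difference of -0.17 ± 0.05 (limma adjusted p = 0.537). Ocln, the occludin gene, gave 6.96 log2 in control and 6.89, 7.01 and 6.90 log2. Tjp1, which encodes the scaffold ZO-1, gave 9.35 log2 in control and 9.38, 9.28 and 9.35 log2. Ocln and Tjp1 had mean differences of -0.03 ± 0.06 and -0.02 ± 0.05 log2, and epithelial and glial cells express them as well as endothelium.

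**Figure D2:**
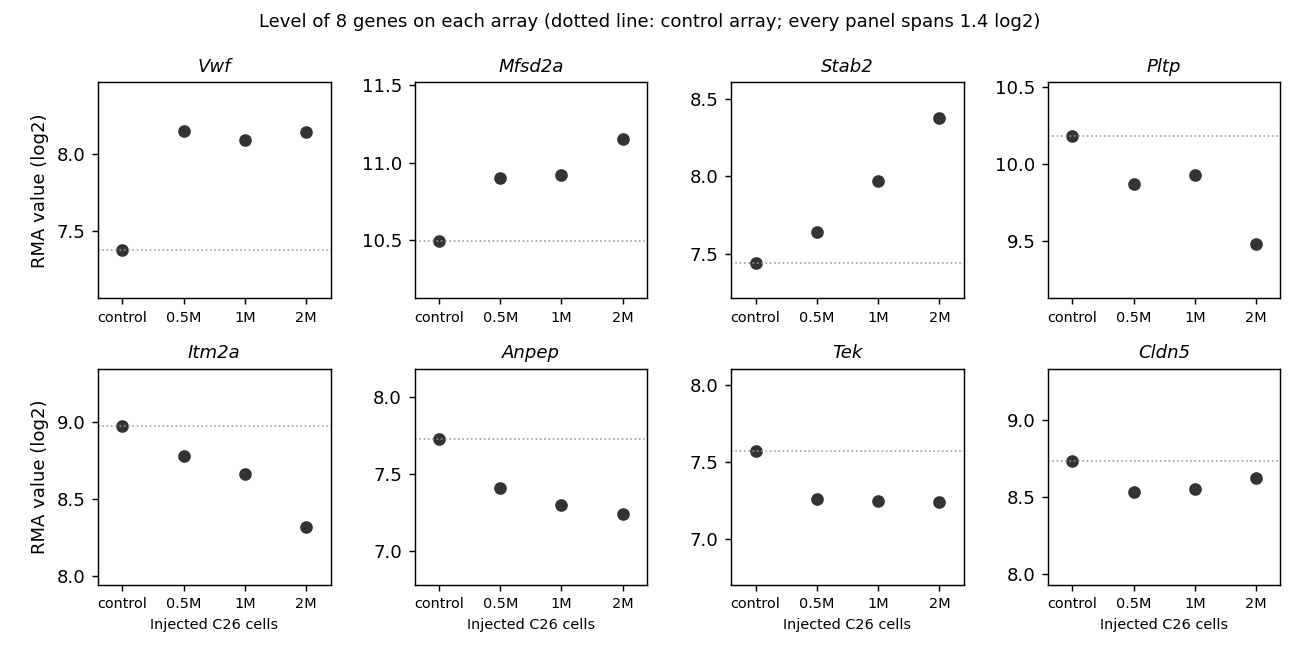
RMA value (y axis, log2) of 8 vascular genes on each of the 4 arrays (x axis), 1 point per array, with a dotted line at the control value and a span of 1.4 log2 in every panel. Vwf and Tek are level over the 3 tumour-bearing arrays, Stab2 goes from 7.44 to 8.38 log2, Itm2a from 8.97 to 8.32 log2, and Cldn5 stays within 0.20 log2 of control.

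In the barrier transport group, Mfsd2a was high and the pair Itm2a and Pltp low, with the other transporters in between. Mfsd2a carries lysophospholipids with docosahexaenoic acid into the brain and holds back transcytosis in barrier endothelium. It measured 10.49 log2 in control and 10.90, 10.92 and 11.15 log2 on the tumour-bearing arrays, higher at each larger cell number, without passing the test. The mean difference was 0.50 ± 0.14 log2, a 1.41-fold higher signal (limma adjusted p = 0.375), and 1.58-fold in the mouse of 2M. The slope over the 4 arrays was 0.30 ± 0.08 log2 per 1000000 cells (SE, limma adjusted p = 0.631). It was 0.18 without the control array (limma adjusted p = 1) and 0.43 without the 2M array (limma adjusted p = 0.205).

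Itm2a, a membrane protein enriched in brain capillaries, was lower at each larger cell number. Its values were 8.97 log2 in control and 8.78, 8.66 and 8.32 log2 on the tumour-bearing arrays, so that the 2M array was lowest. Pltp, the phospholipid transfer protein, measured 10.18 log2 in control and 9.87, 9.93 and 9.48 log2, again with the single mouse of 2M lowest and a 1.63-fold lower signal there. Their slopes were both -0.32 log2 per 1000000 cells, with standard errors of 0.06 for Itm2a and 0.07 for Pltp and limma adjusted p-values of 0.38 and 0.504. Against control as a whole, Itm2a differed by -0.38 ± 0.24 log2 and Pltp by -0.42 ± 0.24, and without the 2M array by -0.25 and -0.28.

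Other carriers of the barrier gave differences of at most 0.21 log2. Slc2a1, the glucose transporter GLUT1, was above control on all 3 arrays, at 11.56, 11.57 and 11.48 log2 against 11.36 log2. Abcb1a, the efflux pump P-glycoprotein, was above it as well, at 8.66, 8.58 and 8.55 log2 against 8.45 log2. Slco1a4, an organic anion transporter, measured 9.09 log2 in control and 9.11, 9.02 and 9.24 log2, on both sides of control.

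The group of genes for leaky vessels held the member with the steepest gradient. Stab2, stabilin-2, is a scavenger receptor for hyaluronan best known from the sinusoidal endothelium of liver, spleen and lymph node. It stood at 7.44 log2 in control and, in order of cell number, at 7.64, 7.97 and 8.38 log2. Each step up in cell number thus came with a higher value, and the difference reached 0.94 log2 (1.91-fold) in the single mouse of 2M. Its slope was 0.48 ± 0.06 log2 per 1000000 cells (SE) with a limma adjusted p of 0.173, rank 5 by p-value among all genes tested. Plvap, the protein of fenestral diaphragms, gave 7.61 log2 in control and 7.69, 7.89 and 7.66 log2, a difference of 0.14 ± 0.13 log2 with its highest value at 1M.

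The pituitary below the median eminence has fenestrated vessels too, and its markers differed between the arrays. Of 9 anterior pituitary markers 8 were measured and 5 tested, with a median difference of 0.34 log2. On all 3 arrays 6 were higher and 1 lower than control, beside 33.4% and 27.3% of all genes. Gh, the growth hormone gene, was at 6.13 log2 in control, 10.80 log2 at 0.5M, and 6.91 and 6.85 log2 at 1M and 2M. The log2 of the summed signal of the measured markers of this list was 11.90, 12.47, 12.05 and 11.84 from control to 2M. Chga weighed most in this sum, at 11.57, 11.51, 11.69 and 11.50 log2. At 2M Chga and Cga were below control, by -0.07 and -0.50 log2, and all other measured markers of the list were above it. Chga and Cga were named after their values were seen. The part of pituitary tissue in the values of Stab2 and Plvap was not tested.

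The trend with cell number called no gene of the whole array after adjustment (0 of 11963 in either direction), and at an unadjusted p under 0.05 limma gave 3.34% of genes with a rising and 3.18% with a falling slope. Of the 30 tested members 2 (Mfsd2a and Stab2) had rising and 4 (Pltp, Itm2a, Rgs5 and Anpep) falling slopes at that level. With the control set to 0 cells, a plain step from control to tumour also yields a slope, and the lone mouse of 2M weighed most in it. Fits that leave out an array rest on 3 arrays, with fewer residual degrees of freedom than the 2 of the full fit. Genes called in such fits therefore carry little weight. Without the 1M array 3 members were called, namely Stab2 (0.47 log2 per 1000000 cells, limma adjusted p = 0.00526), Itm2a (-0.32, limma adjusted p = 0.0406) and Pltp (-0.33, limma adjusted p = 0.0469), beside 0.234% of all genes called with rising and 0.251% with falling slopes. Without the 0.5M array Stab2 alone was called, at 0.47 log2 per 1000000 cells (limma adjusted p = 0.0162), beside 0.201% rising and 0.117% falling. Without the control array 0 members were called, with limma adjusted p-values of 0.326 for Stab2 and 1 for both Itm2a and Pltp. Without the 2M array 0 were called either, with limma adjusted p-values of 0.145 for Stab2, 0.249 for Itm2a and 0.398 for Pltp.

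A strict order of the 4 arrays was rare among the members and among all genes. Mfsd2a and Stab2 were higher at every step, 2 of 30 members beside 5.22% of all genes. For Mfsd2a the arrays of 0.5M and 1M were nearly level, at 10.90 and 10.92 log2. Tek, Itm2a and Anpep were lower at every step, 3 of 30 beside 4.81%, although for Tek the steps between tumour-bearing arrays summed to 0.02 log2. For 3 of these members, chosen after their values were seen to show what lies ahead of the gene, the 250 bases upstream of the annotated start of Stab2 (GRCm38.p6, chr10:87007943-87008192, minus strand), Mfsd2a (chr4:122961189-122961438, minus strand) and Itm2a (chrX:107403361-107403610, minus strand) are printed here from RefSeq, 5′ to 3′, with matches to AGGAAG on either strand in capitals, all of which read as its reverse complement here.
Stab2: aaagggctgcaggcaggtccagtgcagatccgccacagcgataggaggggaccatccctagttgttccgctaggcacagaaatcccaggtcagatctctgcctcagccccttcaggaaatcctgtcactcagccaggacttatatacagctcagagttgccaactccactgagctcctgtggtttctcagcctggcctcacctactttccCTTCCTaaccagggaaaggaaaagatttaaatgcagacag
Mfsd2a: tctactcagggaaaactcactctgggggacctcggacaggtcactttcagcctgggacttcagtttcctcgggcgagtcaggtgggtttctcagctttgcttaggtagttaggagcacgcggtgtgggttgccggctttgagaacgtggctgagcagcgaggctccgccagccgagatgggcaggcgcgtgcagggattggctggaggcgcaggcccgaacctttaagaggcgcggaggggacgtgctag
Itm2a: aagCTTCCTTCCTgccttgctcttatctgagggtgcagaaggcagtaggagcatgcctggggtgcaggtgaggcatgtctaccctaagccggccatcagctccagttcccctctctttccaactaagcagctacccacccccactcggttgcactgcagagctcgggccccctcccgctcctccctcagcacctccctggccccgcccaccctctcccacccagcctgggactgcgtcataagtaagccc

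The letters AGGAAG, a core bound by ETS factors that specify endothelium, occurred once ahead of Stab2, 40 to 35 bases before the start, and in a pair of overlapping matches ahead of Itm2a. They did not occur ahead of Mfsd2a, nor ahead of Tek, Pltp or Anpep. Of the 6 windows searched for the members farthest from control, only those of Stab2 and Itm2a held a match. Over all 32851 upstream windows of this length, 29.5% held at least 1 match. The SOX core ACAATG (10.7% of all windows), the STAT spacing TTCNNNGAA (7.02%) and the glucocorticoid receptor half-site AGAACA (16.1%) had no match in the 3 printed windows. They had none in those of Pltp and Anpep either, and AGAACA had 1 match ahead of Tek. Both strands were searched, and a match is a run of letters, not a shown binding site. RefSeq's table held upstream windows for 24 of the 34 listed genes, and Vwf was not among them.

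The 6 mural genes had a median difference of -0.16 log2, with 3 of them lower and 1 higher on all 3 arrays, beside 27.3% and 33.4% of all genes. By limma 0 of them were called, and 1 (Anpep) was at an unadjusted p under 0.05. Anpep, aminopeptidase N or CD13, marks pericytes and also perivascular fibroblasts. It was below control on every tumour-bearing array, at 7.73 log2 in control and 7.41, 7.30 and 7.24 log2 in order of cell number, a difference of -0.41 ± 0.09 log2 (limma adjusted p = 0.375). Rgs5, a regulator of G-protein signalling in pericytes, measured 8.48 log2 in control and 8.32, 8.33 and 8.09 log2, lowest in the mouse of 2M (slope -0.18 ± 0.06 log2 per 1000000 cells, SE, limma adjusted p = 0.761). Vtn, vitronectin, a matrix protein that brain pericytes secrete, measured 10.43 log2 in control and 10.22, 10.20 and 10.27 log2.

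Of the other 3 mural genes, Pdgfrb was above control on all 3 arrays, and Abcc9 and Notch3 lay on both sides of it. Pdgfrb, the PDGF receptor that recruits pericytes to the vessel, gave 8.22 log2 in control and 8.25, 8.34 and 8.23 log2, a difference of 0.05 ± 0.06 log2. Abcc9, a subunit of the potassium channel of pericytes that senses ATP, gave 6.87 log2 in control and 6.99, 7.21 and 6.82 log2. Notch3, a receptor of mural cells that binds ligands on endothelium, gave 7.48 log2 in control and 7.19, 7.57 and 7.30 log2. For Abcc9 and Notch3 the range among tumour-bearing arrays, 0.39 and 0.37 log2, was larger than the mean difference from control. Meningeal fibroblast markers, whose cells come with vessels and surface membranes, were below control on all 3 arrays in 6 of 9 and above it in 1, beside 27.3% and 33.4% of all genes. Of 8 tested, limma called 0. At an unadjusted limma p under 0.05 were 0 high and 2 low (Dcn and Slc22a6), beside 6.19% and 4.61% of all genes. Lum, below the filter value, Ogn and Dcn lay farthest from control, by -0.53 ± 0.31, -0.41 ± 0.50 and -0.35 ± 0.13 log2. The log2 of the summed signal of these markers was 11.86 in control and 11.68, 11.53 and 11.78 on the tumour-bearing arrays. The part of meningeal fibroblasts in the Anpep difference was not tested.

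The tumour-bearing arrays differed little from each other for most members. The median SD over these 3 arrays was 0.07 log2 for the 32 measured genes and 0.09 log2 for all tested genes. It ran from 0.01 log2 for Tek to 0.37 log2 for Stab2. In 13 of the 32 genes the mean difference from control was at least as large as the whole range of the tumour-bearing arrays, as in 33.3% of all tested genes. These were Vwf, Pecam1, Emcn, Tek, Tie1, Ramp2, Egfl7, Cldn5, Slc2a1, Abcb1a, Mfsd2a, Anpep and Vtn.

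**Figure D3:**
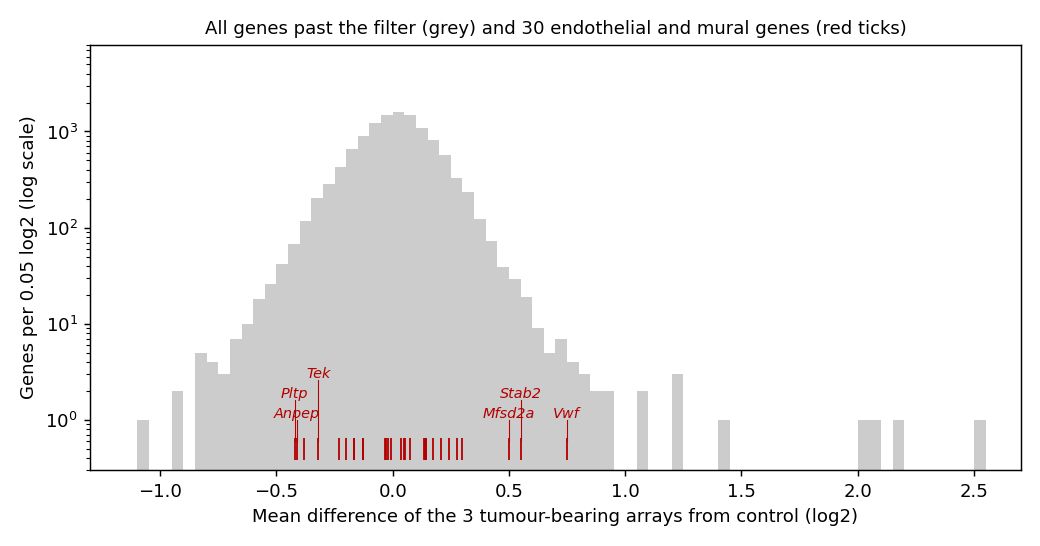
Mean difference of the 3 tumour-bearing arrays from control (x axis, log2) for all 11963 genes past the filter (grey bars, number of genes per 0.05 log2 on a log scale) and for the 30 tested vascular genes (red ticks). The red ticks run from -0.42 log2 (Pltp) to 0.75 log2 (Vwf) and most lie in the dense centre of the grey distribution.

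Further genes of vessels were taken from lists chosen beside the members. In these lists and those of neighbouring cells, counts on all 3 arrays cover all measured genes, also those below the filter value. The shares of all genes, 33.4% higher and 27.3% lower, are over genes past the filter only. At an unadjusted limma p under 0.05 the shares were 6.19% high and 4.61% low. Among 44 other endothelial genes, all measured, the median difference was 0.05 log2, with 16 higher and 9 lower on all 3 arrays and 0 of 35 tested called by limma in either direction (unadjusted p under 0.05 in 3 high and 2 low). Car4, the carbonic anhydrase anchored on capillary endothelium and also made by glia, was the gene farthest from control, at 9.12 log2 in control and 8.57, 8.55 and 8.60 log2 (limma adjusted p = 0.313). Tm4sf1, a tetraspanin-like endothelial protein, and Slc16a1, the monocarboxylate carrier MCT1, each differed by -0.40 log2. Slc40a1, the iron exporter ferroportin, did so too, below the filter value.

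Among 32 growth factor and signalling genes of vessels the median was 0.01 log2, with 9 higher and 9 lower on all 3 arrays and 0 of 26 tested called (unadjusted p under 0.05 in 2 high and 1 low). Calcrl and Aplnr, the apelin receptor, both differed by -0.37 log2 on average. Adm, the adrenomedullin gene, differed by 0.37 ± 0.13 log2 below the filter value, and Robo4, a guidance receptor of endothelium, by 0.34 ± 0.12. The ligands Vegfa and Angpt2 were at 0.21 ± 0.24 and 0.14 ± 0.04 log2 from control, and these names were added after their values were seen.

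Of 16 genes linked to activated endothelium 14 were measured and 11 tested, and 3 rose by limma with 0 lower: Lcn2, Lrg1 and Osmr, which other cells of the brain also express. Osmr, the oncostatin M receptor subunit, differed by 1.06 ± 0.04 log2 with a limma adjusted p of 0.0327. Those 3 were chosen for the list with their values known, so the count is no independent evidence. Ch25h, which makes an oxysterol from cholesterol, was 0.55 ± 0.10 log2 above control below the filter value. The leukocyte adhesion genes Icam1 and Vcam1 differed by -0.12 ± 0.11 and -0.11 ± 0.07 log2, and these 2 were also named after their values were seen. The list had a median of 0.12 log2, with 7 higher and 3 lower on all 3 arrays.

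Smooth muscle and further mural genes, 18 of 18 measured, had a median of -0.08 log2, with 3 higher and 6 lower on all 3 arrays and 0 of 12 tested called (unadjusted p under 0.05 in 0 high and 2 low). Acta2, smooth muscle actin, was at 9.30 log2 in control and 8.98, 8.53 and 8.83 log2, and Tagln, the smooth muscle protein transgelin, at 7.33 log2 and then 6.95, 6.66 and 7.19 log2. Both had their lowest value on the 1M array. Atp13a5, a pericyte gene, differed by -0.34 ± 0.10 log2, and Higd1b, a pericyte gene below the filter value and not tested, by -0.27 ± 0.16. Cspg4, another gene of this list, went the other way on all 3 arrays, by 0.26 ± 0.12 log2 (limma adjusted p = 0.469). It was named after its values were seen.

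**Figure D4:**
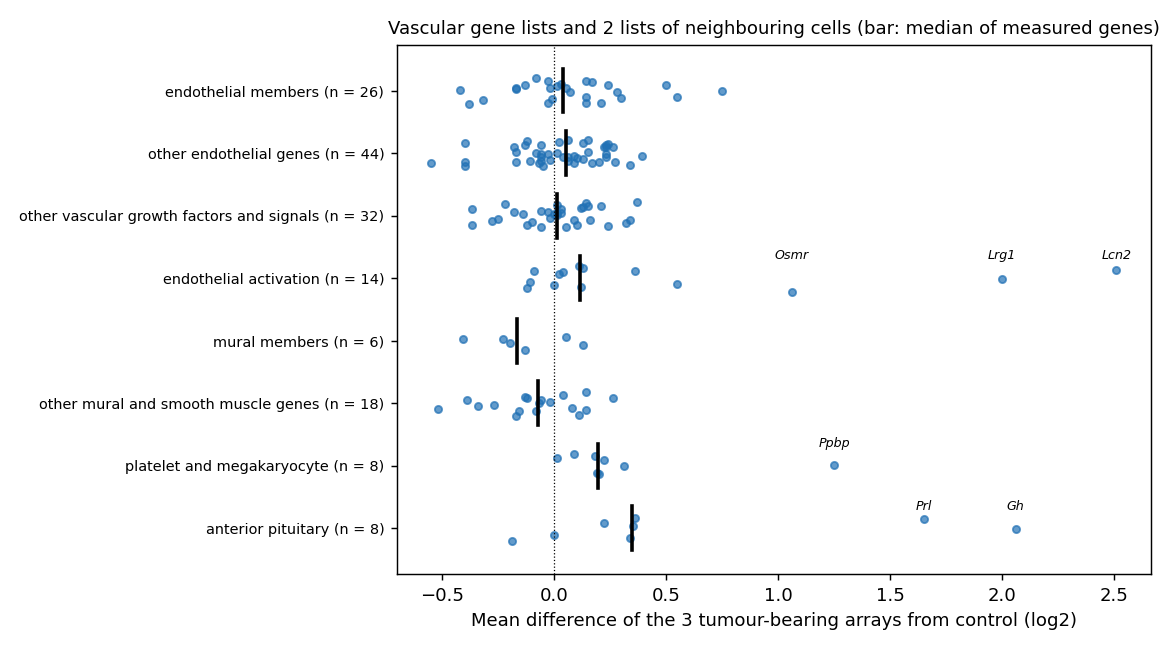
Mean difference of the 3 tumour-bearing arrays from control (x axis, log2) for the measured genes of 8 lists (y axis), 1 point per gene with random vertical scatter and a black bar at each list's median. The endothelial members centre on 0.04 log2 and the mural members on -0.16 log2, and Osmr, Lrg1, Lcn2, Ppbp, Prl and Gh lie far to the right of their lists.

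Markers of the remaining neighbouring cell types were closer to control, apart from microglia. Median differences were -0.02 log2 for 4 genes of lymphatic endothelium (1 higher and 1 lower on all 3 arrays), 0.02 for 8 of choroid plexus (0 and 2), -0.20 for 7 of microglia (1 and 4) and 0.00 for 7 of astrocytes (1 and 2). In these 4 lists limma called 0 genes, with 0 at an unadjusted p under 0.05 on the high side and Aqp4 alone on the low side. Aqp4, the water channel of the astrocyte endfeet that cover brain vessels, measured 9.81 log2 in control and 9.32, 9.49 and 9.16 log2 (limma adjusted p = 0.375).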

How the data were processed

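Hypothalamic RNA of 4 groups was measured on 4 Affymetrix arrays, 1 per group. The authors deposited log2 values per probe set made with RMA, per the submitters' processing notes; its version, the arrays entered together and the genome build are not stated in those notes or the labels. RMA aligns the arrays by quantiles, so a change shared by all transcripts would be lost. The table held 35556 probe sets, 21789 with 1 gene symbol, 1621 with several and 12146 unnamed here, and 0 table columns had no sample. The probe set with the highest mean stood for a gene. Two-sided tests used limma 3.58.1 in R 4.3.3 (lmFit, eBayes, Benjamini-Hochberg over 11963 genes). The code was also run on simulated data. Those gave the control array the same spread as the others, so they could not check that assumption for these data. Plots and counts used Python 3.11.15, pandas 2.3.3, numpy 2.4.6 and matplotlib 3.10.9. The number of arrays limits the precision.

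The members and lists were chosen with earlier results of these data known. All members past the filter, or at least 0.3 log2 from control on any array, are given with values; from other lists came up to 4 genes with the largest mean difference and any gene called, and other names are said to be chosen after their values were seen. Alternatives were no filter, a 60th percentile filter, averaged probe sets, cyclic loess, an intensity-dependent prior, ranked cell numbers, a 0.3 log2 limit and leaving out each array.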

Additional observations from a re-analysis of the deposited data

How the results depend on the processing

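Under every alternative tried, 0 of the vascular genes were called in the tumour comparison. The 6 genes called higher over the whole array became 1 with no filter, 2 with the 60th percentile filter and between 3 and 6 when 1 tumour-bearing array was left out. In the trend, leaving out 1 array gave between 0 and 28 genes called higher, between 0 and 30 called lower and between 0 and 3 vascular genes called. With 0.3 log2 in place of 0.5 log2, the vascular genes counted at 0.5M were 2 high and 3 low, at 1M 6 high and 3 low, and at 2M 3 high and 5 low. With cyclic loess 1 gene was counted high at 1M, since Stab2 dropped below the limit. The median difference of the vascular genes past the 60th percentile filter was 0.07 log2 at 0.5M, 0.12 at 1M, 0.10 at 2M and 0.07 for the mean, and with cyclic loess it was 0.03 at 1M. With 1 tumour-bearing array left out, genes near 0 changed sign: Sox18 between -0.09 and 0.05 log2, Tjp1 between -0.04 and 0.01, and Slco1a4 between -0.03 and 0.09. The cause was not tested. No paired analysis was possible because each group is 1 array.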

Other observations

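Some vascular genes outside the main set also followed the order of cell number. Among the 44 other endothelial genes, 4 were higher and 2 lower at every step from control to the mouse given 2000000 cells, beside 5.22% and 4.81% of all genes past the filter. The 44 include genes below the filter value, with 35 past it, so count and share rest on unlike sets. Cldn12, a claudin, was at 8.26, 8.39, 8.52 and 8.66 log2 from control to the highest cell number. Tm4sf1 was at 9.20, 8.87, 8.82 and 8.71 log2, and Slc40a1, below the filter value on its mean, at 6.42, 6.12, 6.06 and 5.86 log2. Adm, one of the growth factor and signalling genes and a ligand for the receptor that holds Ramp2, was at 5.35, 5.61, 5.68 and 5.86 log2, also below the filter value. These names were chosen after their values were seen. Cldn12 and Tm4sf1 were tested and not called by limma, and Slc40a1 and Adm were not tested.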
